A study of Arabidopsis thaliana with 12 samples.

Results

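Of 22746 probe sets on 12 Affymetrix arrays of Arabidopsis thaliana seedlings, 53 were constitutively higher in a chitin receptor mutant, that is, higher both in water and after chitooctaose. Each probe set reads the transcript of a gene, or of a few near-identical genes. The 53 were chosen on the measured values: the mean of log2(intensity + 16) had to be at least 1 above wild type in each treatment, with all 3 mutant arrays above all 3 wild type arrays. The rule was met by 60 probe sets (0.264% of those tested), of which 7 were left out by name (ICL, AT3G21620, DFR, APL3, SAG29, AT2G04050 and AT2G04070). None of the 60 carries a symbol that starts with CYP, a class that the rule also leaves out. The genotype differences of the 53 are therefore a description and were not tested.

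The 4 groups of 3 arrays each were wild type Col-0 in water, wild type Col-0 with chitooctaose, the mutant in water and the mutant with chitooctaose. The mutant is in the Col-0 background, and the labels name its lesion only as a mutation in the chitin receptor, with no allele or number of lines. Whole seedlings were 14 days old, had been kept in liquid MS medium at 23 °C under continuous light, and received water or 1 uM chitooctaose for 30 minutes. The labels call the 3 arrays of a group biological replicates but do not say whether they came from separate cultures, so the errors measure the spread between these samples.

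Chitin is the wall polymer of fungi, and chitooctaose is a soluble fragment of it. In Arabidopsis the LysM receptor kinase CERK1 is needed for the response to such fragments, which takes in calcium signals, protein kinases and the rapid induction of defence genes. Many plant defence proteins, among them chitinases, lectins and receptor-like kinases, are also made at a basal level that salicylic acid, senescence and stress can raise without chitin. No probe set is named for CERK1, so the genotype labels were not checked by its transcript.

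Arrays of 1 group correlated with r from 0.984 to 0.993 across probe sets, and array medians lay between 177 and 200.5. Of the tissue markers, 2 of 11 leaf photosynthesis genes (RCA and PRK) and 3 of 8 root genes (PYK10, EXPA7 and EXPA18) were measured, that is, named for a probe set in the annotation, and no value was at 0. The summed intensity of the leaf markers ran from 20182 to 21064 on wild type water arrays, from 21079 to 24873 with chitooctaose, and in the mutant from 21720.2 to 22870.3 and from 20122 to 21731. For the root markers the ranges were 10329.5 to 10933, 9422 to 10516, 9863 to 10815 and 10034 to 10792 in the same order. PYK10, with a mean of 9845.5 in wild type water, makes up most of the root sums. EXPA7 and EXPA18, both active in root hairs, were called lower in the mutant in water, at -0.65 ± 0.12 and -0.62 ± 0.11 on the log2 scale. With chitooctaose neither was called (-0.13 ± 0.12 and -0.07 ± 0.11). The part of tissue make-up in the levels below was not tested. In such whole seedlings a change in the share of a cell type cannot be told apart from a change of RNA per cell.

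The genotype difference of the 53 ran from 1.00 to 5.67 on the log2 scale in water (median 1.65) and from 1.01 to 5.29 with chitooctaose (median 1.58), while the medians over all probe sets were -0.0023 and 0.0013. By the rule's standard 0.400% of all probe sets were higher in water and 0.690% with chitooctaose. A further 31 met it in water alone and 97 with chitooctaose alone. The mirror rule, lower in the mutant by at least 1 in both treatments with no overlap, held for 10 probe sets. The 2 differences were within 0.5 of each other for 40 of the 53, larger with chitooctaose for 33 and larger in water for 20. Many members were dim in wild type: 26 of the 53 had a mean intensity under 50 in wild type water, against 23.3% of all probe sets, and their median mean intensity was 50.5 there and 249 in mutant water. The median log2(intensity + 16) over the 53 was 5.96 to 6.11 on the wild type water arrays, 6.20 to 6.39 with chitooctaose, 7.93 to 8.05 on the mutant water arrays and 8.12 to 8.26 with chitooctaose.

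**Figure D1:**
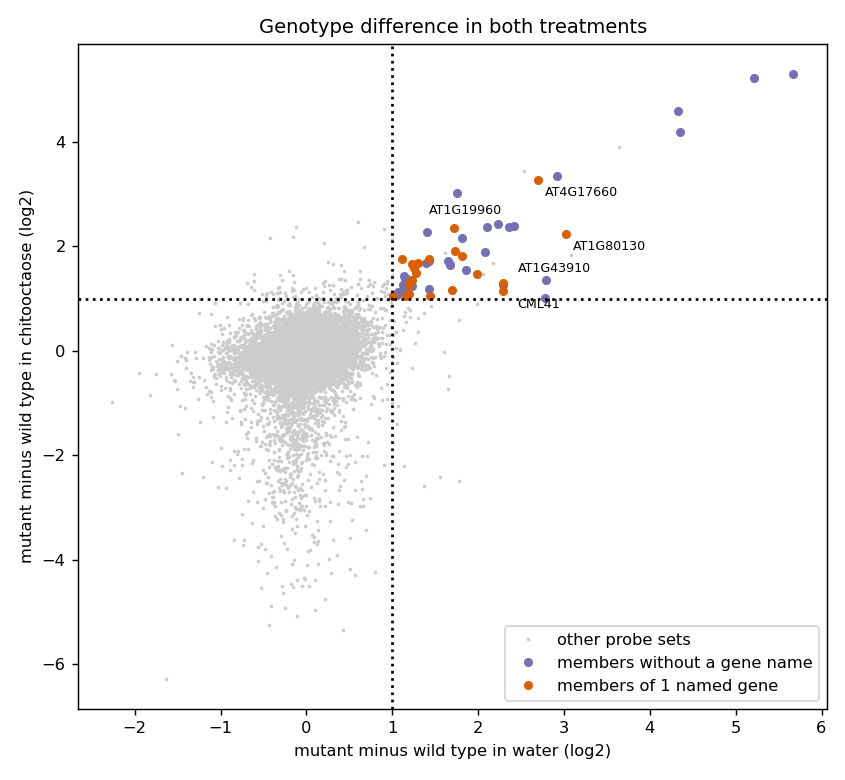
Mutant minus wild type difference of mean log2(intensity + 16) in water (horizontal axis) and with chitooctaose (vertical axis) for every probe set. Dotted lines mark a difference of 1, and the 53 members, in orange with 1 gene name and in purple without one, lie above and to the right of both by the rule that chose them.

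The platform annotation gives 1 gene for 22 of the 53 and none for the other 31, which are unnamed here. Over all probe sets the share with 1 gene is 59.4%, and among the members 41.5%. The members of largest difference have no gene name. 266070_at read 18.4, 34.2 and 36.5 on the wild type arrays in water and 2307, 2282 and 2223 on the mutant arrays, and with chitooctaose 60.7, 71.6 and 62.8 against 3103, 3289.5 and 3078. In wild type 266385_at stood at 59.5, 55.7 and 42.8 in water and 55.7, 44.5 and 47.2 with chitooctaose, and in the mutant at 2478, 2528 and 2558 in water and 2487, 2474 and 2227 with chitooctaose. Both thus lay near the lower end of the scale on all wild type arrays and at 2223 or more on all mutant arrays. The differences on the log2 scale were 5.67 ± 0.12 in water and 5.29 ± 0.12 with chitooctaose for the first and 5.22 ± 0.10 in water and 5.21 ± 0.10 with chitooctaose for the second. 250445_at read 14.9, 5.14 and 12 on the wild type arrays in water and 486, 534 and 525 on the mutant arrays, and with chitooctaose 17.3, 16.5 and 10.2 against 853, 766 and 577. In wild type 251625_at stood at 31.7, 25.1 and 23.4 in water and 33.3, 41.2 and 45.3 with chitooctaose, and in the mutant at 820.2, 855 and 885 in water and 975, 986 and 1047 with chitooctaose. Neither of these 2 overlapped between genotypes either. Probe sets 250445_at and 251625_at followed, with differences of 4.33 ± 0.16 in water and 4.60 ± 0.16 with chitooctaose for the first and 4.35 ± 0.10 in water and 4.19 ± 0.10 with chitooctaose for the second. The other unnamed probe sets among the 16 largest were 265837_at, 254265_s_at, 260116_at, 266292_at, 256766_at, 250868_at, 245035_at and 258277_at. Of the 53, 5 are of the _s_at kind, designed to match more than 1 transcript, and 11 differed by at least 2 on the log2 scale in both treatments.

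**Figure D2:**
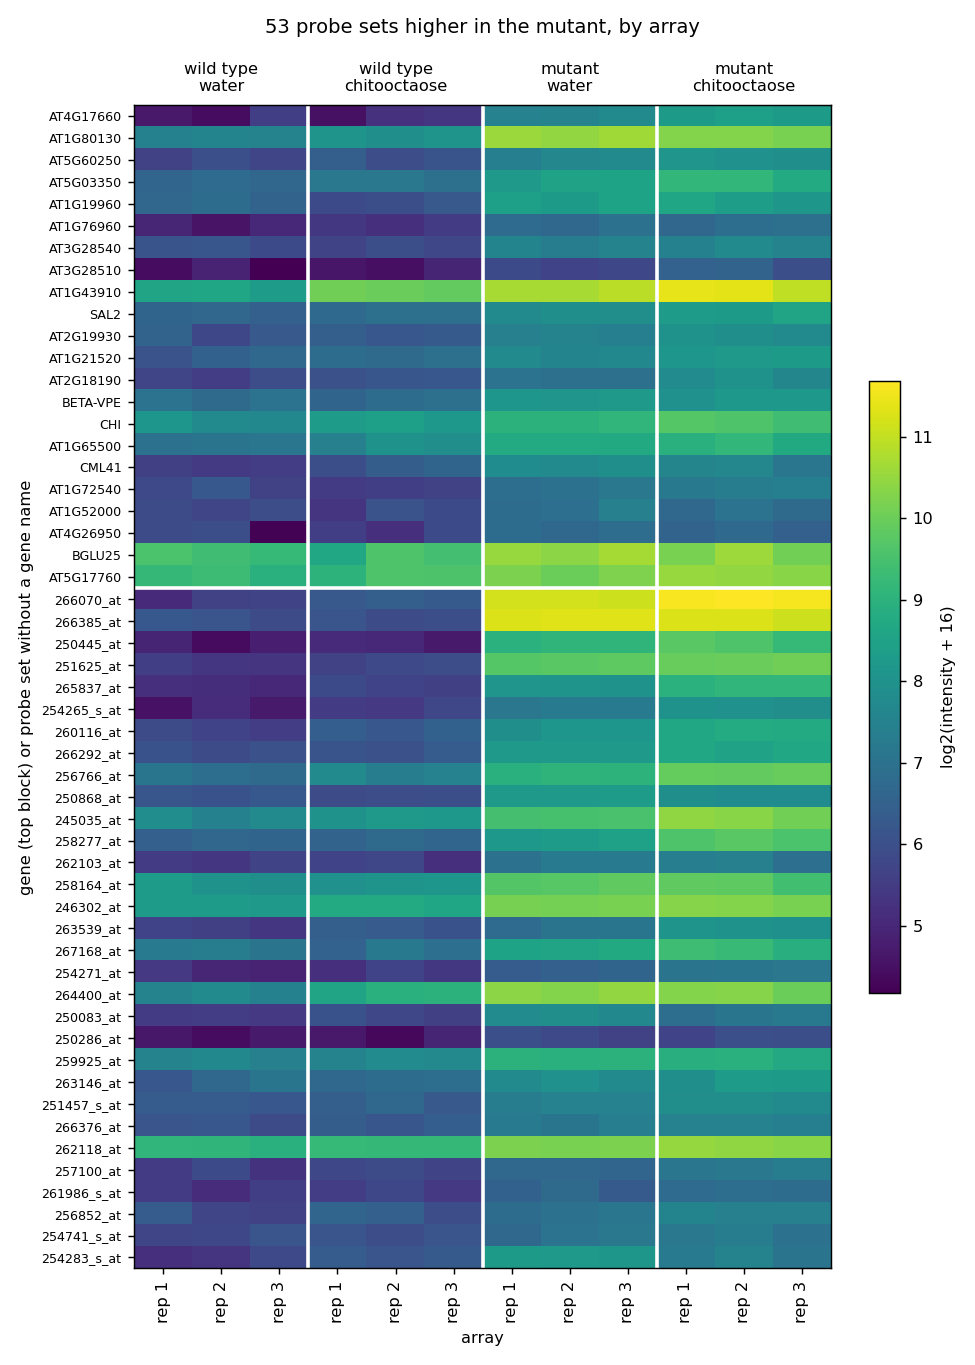
Level of each of the 53 members (rows) on each of the 12 arrays (columns) as log2(intensity + 16), with the 22 named genes above the white line and probe sets without a gene name below it. Rows run from the largest to the smallest of the lesser genotype difference within each block, and all 6 mutant arrays are brighter than the wild type arrays of the same treatment.

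The named members hold several kinds of signalling protein. AT4G17660 codes for a protein kinase and had the largest lesser difference of the named genes. It read 9.46, 5.49 and 31.5 on the wild type arrays in water and 165, 168 and 198 on the mutant arrays, and with chitooctaose 6.56, 22.2 and 25.3 against 295, 323 and 290.4. It was close to the floor of the scale on all 6 wild type arrays, and its differences were 2.70 ± 0.25 in water and 3.28 ± 0.25 with chitooctaose. AT1G72540, another protein kinase gene, differed by 1.12 ± 0.15 in water and 1.75 ± 0.15 with chitooctaose, the former 0.99 without replicate 3 of wild type in water. In wild type it stood at 41.2, 59.8 and 34.3 in water and 28.9, 31.5 and 34.2 with chitooctaose, and in the mutant at 102, 113 and 131 in water and 132, 146 and 153 with chitooctaose. With chitooctaose its wild type arrays all read below those in water and its mutant arrays all above, and neither change passed the test of the response described further on. CML41 codes for a calmodulin-like calcium sensor. It read 32.8, 27.7 and 30.6 on the wild type arrays in water and 211, 196 and 227 on the mutant arrays, and with chitooctaose 46.6, 68.4 and 80.7 against 177, 186 and 123. The gap between genotypes was 2.29 ± 0.16 in water and 1.14 ± 0.16 with chitooctaose, and without replicate 1 of wild type with chitooctaose the latter was 0.96, under the rule's limit.

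AT1G80130, a tetratricopeptide repeat protein gene, was among the brightest. In wild type it stood at 162, 175 and 169 in water and 251, 227 and 250.1 with chitooctaose, and in the mutant at 1498, 1405 and 1545 in water and 1243, 1229 and 1145 with chitooctaose. The mutant arrays were the highest in water and the wild type arrays the lowest in water, and the genotypes differed by 3.02 ± 0.08 in water and 2.24 ± 0.08 with chitooctaose. AT5G60250 codes for a RING-type zinc finger protein, a class that holds many ubiquitin ligases. It read 34.4, 48.8 and 37.1 on the wild type arrays in water and 156, 183 and 200.2 on the mutant arrays, and with chitooctaose 71.8, 45.6 and 53.5 against 257, 236 and 224. All mutant arrays lay above all wild type arrays, and the genotypes differed by 1.81 ± 0.15 in water and 1.82 ± 0.15 with chitooctaose. AT2G19930 belongs to the RNA-dependent RNA polymerases, enzymes that copy RNA into double strands for RNA silencing. In wild type it stood at 77.8, 40.3 and 61.4 in water and 72.1, 57.5 and 62.4 with chitooctaose, and in the mutant at 160.0, 168 and 155 in water and 243, 225 and 202 with chitooctaose. Its differences were 1.25 ± 0.15 in water and 1.58 ± 0.15 with chitooctaose, and of the 6 listed genes of that family it is the 1 for which the annotation names a probe set.

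AT5G03350 codes for a legume lectin-domain protein known to be induced by salicylic acid. It read 82.6, 96.3 and 84.6 on the wild type arrays in water and 286, 347 and 354 on the mutant arrays, and with chitooctaose 129, 129 and 107 against 553, 549.6 and 417. The difference was 1.73 ± 0.12 in water and 1.92 ± 0.12 with chitooctaose. CHI (AT2G43570) codes for a putative chitinase, an enzyme that cuts chitin. In wild type it stood at 263, 196 and 188 in water and 305, 328 and 273 with chitooctaose, and in the mutant at 502, 494 and 536 in water and 815, 769 and 656 with chitooctaose. Its differences were 1.20 ± 0.12 in water and 1.26 ± 0.12 with chitooctaose. The direct neighbours measured on either side of it, AT2G43560 and AT2G43580, differed by 0.06 and -0.11 in water and by -0.35 and -0.27 with chitooctaose. AT1G52000 codes for a jacalin-type lectin. It read 45, 38.1 and 46.3 on the wild type arrays in water and 98.2, 106 and 159 on the mutant arrays, and with chitooctaose 23.3, 52.5 and 42.1 against 87.6, 115 and 92.7. It differed by 1.19 ± 0.20 in water and 1.08 ± 0.20 with chitooctaose, and without replicate 1 of wild type with chitooctaose the second value was 0.85. BETA-VPE is a vacuolar processing enzyme, a cysteine protease that matures and breaks down proteins of the vacuole. It read 115, 93.7 and 115 on the wild type arrays in water and 261, 257 and 286 on the mutant arrays, and with chitooctaose 79.7, 98.2 and 107 against 235, 273 and 272. The mutant arrays all lay above the wild type arrays, by 1.20 ± 0.12 in water and 1.32 ± 0.12 with chitooctaose. Of the other 3 vacuolar processing enzyme genes, ALPHA-VPE differed by -0.16 ± 0.11 in water, DELTA-VPE by 0.06 ± 0.14 and GAMMA-VPE, called lower, by -0.26 ± 0.07 (limma adjusted p = 0.034).

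Among the named members, SAL2 and BGLU25 are enzymes of other kinds. SAL2 is a relative of SAL1, a phosphatase that acts on phosphoadenosine phosphate and inositol phosphates. In wild type it stood at 81.5, 84.9 and 73.8 in water and 90.8, 107 and 108 with chitooctaose, and in the mutant at 204, 225 and 222 in water and 302, 289.7 and 359.6 with chitooctaose. Its differences were 1.28 ± 0.11 in water and 1.5 ± 0.11 with chitooctaose. AT5G63990, its direct neighbour and relative, differed by 0.03 ± 0.09 and 0.34 ± 0.09, the latter called (limma adjusted p = 0.014). BGLU25 is a beta glucosidase, an enzyme that removes glucose from glycosides. In wild type it stood at 732, 653 and 576 in water and 392, 763 and 674 with chitooctaose, and in the mutant at 1472, 1329 and 1617 in water and 1144, 1528 and 1075 with chitooctaose. It was bright in both genotypes and apart between them, by 1.15 ± 0.18 in water and 1.05 ± 0.18 with chitooctaose, with means of 654 ± 78.2 and 1473 ± 144 in water (SD, n = 3 each). Its mean with chitooctaose was 609.7 ± 194 and 1249 ± 244. Of the 19 other genes with a BGLU symbol, 2 were called higher in the mutant in water and 0 lower, BGLU40 by 0.57 ± 0.10 and BGLU44 by 0.37 ± 0.09. Over all probe sets 4.03% were called higher in water and 6.30% lower. With chitooctaose 1 of the 19 was called higher and 2 lower, where 7.77% and 9.50% of all probe sets were.

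Several named members code for proteins whose role is not stated here. AT1G19960 read 84.1, 97.9 and 77.9 on the wild type arrays in water and 323, 291 and 353 on the mutant arrays, and with chitooctaose 42.6, 47.1 and 61.7 against 377, 320.2 and 268. In wild type AT1G76960 stood at 15.2, 7.55 and 16.2 in water and 26.3, 20.4 and 28.2 with chitooctaose, and in the mutant at 94.8, 89.6 and 111 in water and 85.1, 103 and 106 with chitooctaose. AT1G21520 read 51.9, 74.4 and 87.0 on the wild type arrays in water and 197, 172 and 189 on the mutant arrays, and with chitooctaose 98.3, 93.4 and 107 against 262, 281 and 293. The groups of all 3 were apart by 1.72 ± 0.14 in water and 2.34 ± 0.14 with chitooctaose for the first, 1.99 ± 0.16 in water and 1.48 ± 0.16 with chitooctaose for the second and 1.23 ± 0.13 in water and 1.35 ± 0.13 with chitooctaose for the third. In wild type AT1G65500 stood at 112, 118 and 124 in water and 158, 242 and 222 with chitooctaose, and in the mutant at 418, 422 and 412 in water and 474, 556 and 408 with chitooctaose. AT1G65500 thus differed by 1.69 ± 0.13 in water and 1.16 ± 0.13 with chitooctaose, the latter 0.99 without replicate 1 of wild type with chitooctaose. AT4G26950 differed by 1.44 ± 0.32 in water and 1.05 ± 0.32 with chitooctaose, and replicate 3 of wild type in water read 2.74 where the other 2 read 43.8 and 46.7. Without that array its difference in water was 0.87, under the rule's limit. AT4G26950 read 43.8, 46.7 and 2.74 on the wild type arrays in water and 97.8, 88.9 and 101.2 on the mutant arrays, and with chitooctaose 31.1, 21.3 and 42.1 against 78.0, 92.0 and 73.9. Its mutant arrays lay above all its wild type arrays of the same treatment, by the rule.

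**Figure D3:**
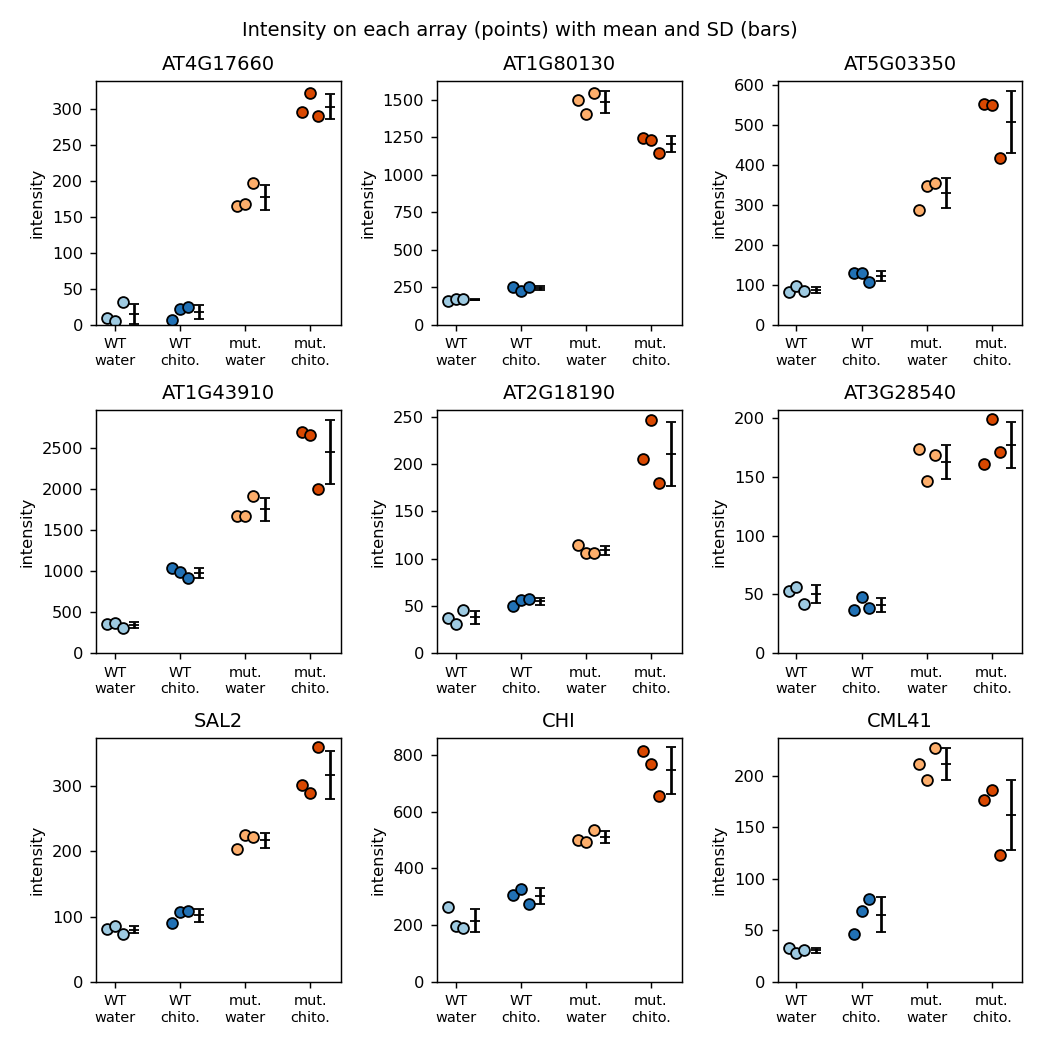
Intensity on a linear scale of 9 named members in each group, with a point per array and the mean ± SD of 3 arrays beside it. In every panel the mutant points lie above the wild type points of the same treatment, and CML41 and AT1G80130 have their highest values in mutant water.

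The AAA-type ATPases, which use ATP to remodel other proteins, gave 5 of the 22 named members. This family was singled out after the members had been seen, from a list of 21 related loci of which 14 were measured. AT1G43910 was the brightest of the 5 on all mutant arrays. It read 358, 375 and 305 on the wild type arrays in water and 1672, 1669 and 1919.5 on the mutant arrays, and with chitooctaose 1041, 985 and 919.9 against 2694, 2661 and 1999. Each group lay apart from the next, in the order wild type water, wild type chitooctaose, mutant water and mutant chitooctaose, with genotype differences of 2.29 ± 0.11 in water and 1.29 ± 0.11 with chitooctaose. In wild type AT2G18190 stood at 37.3, 30.9 and 45.4 in water and 50.1, 56.6 and 57.7 with chitooctaose, and in the mutant at 115, 107 and 106 in water and 205, 247 and 179.9 with chitooctaose. AT2G18190 kept the same order of groups at a lower level, with differences of 1.22 ± 0.14 in water and 1.67 ± 0.14 with chitooctaose. AT3G28540 read 53.3, 56.4 and 42.0 on the wild type arrays in water and 173, 147 and 169 on the mutant arrays, and with chitooctaose 36.8, 47.5 and 38.4 against 161, 199 and 171. Its genotypes kept apart on all arrays, by 1.43 ± 0.13 in water and 1.76 ± 0.13 with chitooctaose. In wild type AT3G28510 stood at 5.33, 13.5 and 2.01 in water and 8.92, 6.22 and 14.6 with chitooctaose, and in the mutant at 42.4, 35.9 and 39.3 in water and 77.2, 78.7 and 46.8 with chitooctaose. AT3G28510 was near the floor in wild type, and its difference (1.30 ± 0.22 in water and 1.68 ± 0.22 with chitooctaose) understates the ratio of intensities, since 16 was added before the log. AT5G17760 read 569, 629.6 and 472 on the wild type arrays in water and 1177, 1011 and 1199 on the mutant arrays, and with chitooctaose 505, 764 and 759 against 1471, 1412 and 1292. AT5G17760 was the member closest to the limit, at 1.00 ± 0.14 in water and 1.05 ± 0.14 with chitooctaose.

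Of the relatives that are not members, AT3G28580 had the highest difference in water. It stood at 9.30 ± 3.34 in wild type water and 60.9 ± 9.90 in mutant water (SD, n = 3 each), a difference of 1.60 ± 0.15 called by limma (adjusted p = 2e-06). With chitooctaose its genotypes were at 117 ± 13.4 and 115 ± 14.8, a difference of -0.02 ± 0.15, so it met the rule in water only. Of the 9 measured relatives that are not members it was the 1 called higher in water, and 0 were called lower, where 4.03% and 6.30% of all probe sets were. With chitooctaose AT4G25835 was called higher (0.40 ± 0.12) and AT2G46620 lower (-1.69 ± 0.09), where 7.77% and 9.50% of all probe sets were. For 7 of the 9 both differences lay within 0.5 of 0. Members and other relatives stood side by side on chromosome 3: of 6 measured between AT3G28510 and AT3G28610 in gene order, 2 were members and AT3G28520, between them, differed by 0.01 ± 0.18 and 0.01 ± 0.18.

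**Figure D4:**
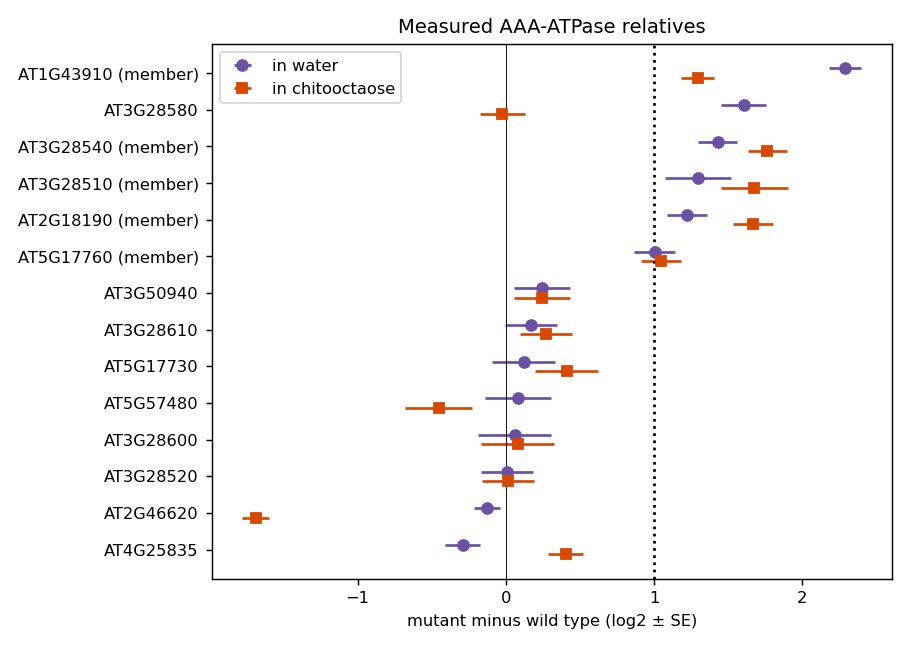
Mutant minus wild type difference ± SE of the fit in water (circles) and with chitooctaose (squares) for the 14 measured AAA-ATPase genes. The 5 members lie beyond the dotted line at 1 in both treatments, and AT3G28580 lies beyond it in water only.

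The response to chitooctaose within a genotype is not itself part of the rule, and was tested with limma over all 22746 probe sets. The rule bears on the counts all the same, since it used the same group means. It leaves out genes whose wild type level rose near that of the mutant, such as AT3G28580 (2.40 ± 0.15 in wild type). The shares of all probe sets beside the counts are thus given as a description. In wild type 20 of the 53 rose (37.7%) and 1 fell, where 8.82% of all probe sets rose and 10.1% fell. In the mutant 12 rose (22.6%) and 2 fell, where 0.721% of all rose and 0.769% fell. The median response of the 53 was 0.26 in wild type and 0.33 in the mutant, against -0.04 and -0.03 over all probe sets, and 43 and 38 of the 53 had values above 0, against 43.6% and 42.5% of all. In the mutant the chitooctaose arrays lay above the water arrays without overlap for 32 of the 53 (7.06% of all probe sets) and below for 6 (11.4%). In wild type they did so for 23 (13.1%) and 3 (19.8%). Tissue markers also moved with the wild type response: EXPA7 fell by 0.57 (limma adjusted p = 0.0016), EXPA18 fell by 0.58 (limma adjusted p = 0.00096) and PRK rose by 0.38 ± 0.09 (limma adjusted p = 0.0057). RCA and PYK10 were not called, and in the mutant 0 of the 5 were (at an unadjusted p under 0.05, also 0). The part of tissue make-up in the responses was not tested. In each of 4 fits without 1 array, namely mutant chitooctaose replicate 1 and mutant water replicates 1, 2 and 3, the count of 12 that rose in the mutant became 7. The 2 that fell became 4 without wild type chitooctaose replicate 1 and 1 without mutant chitooctaose replicate 1 or mutant water replicates 1 or 2, and the 1 that fell in wild type became 2 without wild type chitooctaose replicate 2.

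Rises in wild type among named members were largest for AT1G43910, by 1.47 ± 0.11 (limma adjusted p = 1.6e-08). CML41 rose by 0.79 ± 0.16 (limma adjusted p = 0.0021) and AT1G65500 by 0.72 ± 0.13 (limma adjusted p = 0.00069). AT1G76960 rose by 0.51 ± 0.16, AT1G80130 by 0.49 ± 0.08 and CHI by 0.47 ± 0.12. The smaller rises of AT1G21520 (0.43 ± 0.13), AT5G03350 (0.40 ± 0.12) and AT2G18190 (0.40 ± 0.14) had limma adjusted p of 0.032, 0.03 and 0.049. AT2G18190 lost its call in 8 of the 12 fits without 1 array, namely wild type water replicates 1 and 2, wild type chitooctaose replicates 2 and 3, each mutant water array and mutant chitooctaose replicate 1. AT1G76960 lost it without wild type chitooctaose replicate 1 or 3 or replicate 2 of wild type water, mutant water or mutant chitooctaose. AT1G21520 lost it without wild type water replicate 1 or 2 or wild type chitooctaose replicate 1 or 3, AT5G03350 without wild type water replicate 1 or 3 or wild type chitooctaose replicate 1 or 2, and CHI without wild type water replicate 2 or 3. AT1G19960 fell by 0.63 (limma adjusted p = 0.003), from values of 77.9 to 97.9 in water to 42.6 to 61.7. The other 12 named members were not called, at -0.34 to 0.37. Of the 11 unnamed probe sets that rose, by 0.39 to 1.24, 264400_at moved most. In wild type 264400_at stood at 170.0, 199 and 162 in water and 361, 478 and 493 with chitooctaose, and in the mutant at 1309, 1241 and 1393 in water and 1234, 1255 and 1001 with chitooctaose. It was not called in the mutant (-0.18 ± 0.12).

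In the mutant AT2G18190 rose by 0.85 ± 0.14 (limma adjusted p = 0.0029), AT5G03350 by 0.59 ± 0.12 (limma adjusted p = 0.019) and CHI by 0.53 ± 0.12 (limma adjusted p = 0.028). SAL2 rose by 0.51 ± 0.11 and AT1G43910 by 0.47 ± 0.11, with limma adjusted p of 0.022 and 0.04. Leaving out mutant chitooctaose replicate 1 or any mutant water array ended the calls of AT5G03350, CHI, SAL2 and AT1G43910. Replicate 2 of mutant chitooctaose did so for AT5G03350, CHI and AT1G43910, replicate 3 for SAL2, and wild type chitooctaose replicate 2 and wild type water replicates 1 and 2 for AT1G43910. AT2G18190 kept its call without any 1 array. The other 17 named members, at -0.37 to 0.73, were not called, and AT4G17660 had 0.73 ± 0.25 (limma adjusted p = 0.23). Of the 7 unnamed probe sets that rose, by 0.69 to 1.33, 258277_at moved most, and it was not called in wild type (0.07 ± 0.10). 258277_at read 73.1, 85.4 and 81.0 on the wild type arrays in water and 274, 306 and 339.6 on the mutant arrays, and with chitooctaose 78.4, 92.4 and 82.0 against 771, 858 and 746. Its wild type groups overlapped, while its mutant arrays with chitooctaose lay far above those in water.

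Of the 53, 10 rose in both genotypes, which is 50% of those that rose in wild type and 83.3% of those that rose in the mutant. Among all probe sets 76 (0.334%) did, out of 2007 that rose in wild type and 164 that rose in the mutant. The 10 became 5 without mutant chitooctaose replicate 1 or any mutant water array, and 6 without wild type water replicate 2 or mutant chitooctaose replicate 2. The named ones were AT1G43910, AT2G18190, AT5G03350 and CHI. Probe set 254283_s_at rose in wild type by 0.84 ± 0.16 and fell in the mutant by 0.93, and 29 members were called in neither genotype. For calls in neither genotype and for opposite calls the shares of all probe sets are not given here, so these counts are a description only. 254283_s_at read 20.1, 23.3 and 41.0 on the wild type arrays in water and 292, 282 and 269.9 on the mutant arrays, and with chitooctaose 65.6, 55.8 and 62.9 against 138, 168 and 118. The water arrays of the mutant were thus the highest of this probe set and those of wild type the lowest. Whether the 2 responses of a gene differ was not tested, since that difference is made of the genotype differences the rule used. For each of the 53, every wild type array with chitooctaose read below every mutant array in water, by 0.63 to 5.29 on the log2 scale between group means (median 1.37). The rule favours this, since it leaves out genes whose level in wild type with chitooctaose came near that of the mutant with chitooctaose, and it is a description only.

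**Figure D5:**
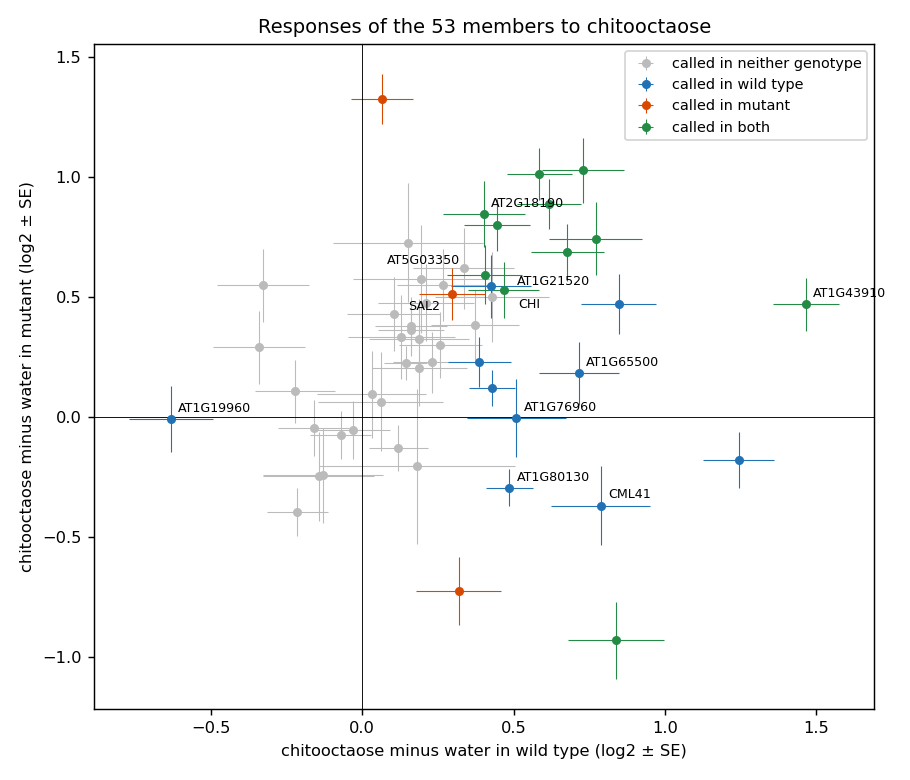
Change from water to chitooctaose in wild type (horizontal axis) and in the mutant (vertical axis) for the 53 members, as log2 values ± SE of the fit, coloured by the genotype in which limma called the change. Probe sets called in both lie to the upper right except 254283_s_at, which rose in wild type and fell in the mutant.

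Genes of 9 pathway lists were compared with the members. The lists cover salicylic acid, senescence, low sugar, detoxification, phosphate starvation, anthocyanins, abscisic acid and cold, jasmonate, and cysteine-rich and wall-associated receptor kinases. Because the annotation is partial, 25 of their 196 genes were measured, none for phosphate starvation or receptor kinases, and AT5G03350 was the 1 member among them. List genes without a named probe set may be among the 31 unnamed members, so the number of list genes that are members is not known. Of the other 24, 3 were called higher in the mutant in water and 10 lower, with a median difference of -0.16, where 4.03% of all probe sets were higher and 6.30% lower. With chitooctaose 4 were higher and 9 lower, with a median of -0.17, where 7.77% of all were higher and 9.50% lower. Lower calls thus outnumbered higher ones both in the lists and over all probe sets. In both treatments, calls of each direction took a larger share of the 24 than of all probe sets. The lists were chosen with earlier results of these data known, so this is a description. Without wild type water replicate 2 or mutant water replicate 2 the 13 calls in water became 7, and without mutant water replicate 1 they became 8. In wild type 7 of the 24 rose with chitooctaose and 9 fell, where 8.82% and 10.1% of all probe sets did. In the mutant 2 rose and 1 fell (0.721% and 0.769% of all), 5 calls in place of 3 without wild type chitooctaose replicate 1.

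Of the 35 genes of the salicylic acid list 5 were measured. Whether the rest are among the 31 unnamed members was not tested, so the list is not judged as a whole. Besides AT5G03350, the other 4 measured genes went both ways. SAG101, a partner of the immune regulator EDS1, was higher in the mutant in water by 0.58 ± 0.16 and lower with chitooctaose, at -0.59 ± 0.16 (limma adjusted p = 0.028 and 0.017). AT5G52810 (SARD4), which acts in pipecolic acid synthesis, was higher in water by 0.47 ± 0.11, and was not called with chitooctaose (0.15 ± 0.11). UGT76B1, a glucosyltransferase that restrains this defence, was lower in water, at -0.50 ± 0.10, and higher with chitooctaose by 0.95 ± 0.10. The glutaredoxin gene GRX480 differed by -0.02 ± 0.20 in water and was lower with chitooctaose, at -0.75 ± 0.20. In wild type SAG101, GRX480 and AT5G52810 rose with chitooctaose, by 1.11 ± 0.16, 0.79 ± 0.20 and 0.52 ± 0.11, and in the mutant they were not called. UGT76B1 fell in wild type, at -0.81 ± 0.10, and rose in the mutant by 0.65 ± 0.10.

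Among low sugar genes 3 of 5 were called lower in water and 0 higher, where 6.30% and 4.03% of all probe sets were, with IVD at -0.88 ± 0.08, MCCA at -0.77 ± 0.07 and AKINBETA1 at -0.44 ± 0.08. IVD and MCCA act in leucine breakdown, and AKINBETA1 is a subunit of the SnRK1 energy-sensing kinase. With chitooctaose BZIP53 and MCCA were lower, at -0.29 ± 0.06 and -0.27 ± 0.07. Of the senescence list both measured genes, the transcription factors WRKY53 and WRKY6, were lower in both treatments. WRKY53 was at -0.44 ± 0.12 in water and -5.25 ± 0.12 with chitooctaose, and WRKY6 at -0.33 ± 0.09 and -1.25 ± 0.09. With chitooctaose WRKY53 rose in wild type by 4.59 ± 0.12 and WRKY6 by 0.97 ± 0.09. Neither was called in the mutant (-0.22 ± 0.12 and 0.05 ± 0.09), so the larger gaps with chitooctaose go with the wild type rise. In the detoxification list 1 of 5 was lower in water, UGT73B5 at -0.38 ± 0.12, and with chitooctaose GSTU22 and GSTU25 were higher while UGT73B4 and UGT73B5 were lower. COR15A, a cold-regulated gene, was higher in water by 0.91 ± 0.12, and COR47 and LTI30 of the same list were lower. Of the 3 anthocyanin genes limma called 0 in either treatment (at an unadjusted p under 0.05, also 0). These 3 do not include DFR, also of anthocyanin synthesis, and the measured senescence genes do not include SAG29. DFR and SAG29 met the rule, higher in the mutant in both treatments, and were left out by name. The 1 jasmonate gene measured, the defensin gene PDF1.2, was lower in water, at -0.47 ± 0.11, and higher with chitooctaose by 0.94 ± 0.11. It fell with chitooctaose in wild type, at -0.70 ± 0.11, and rose in the mutant by 0.71 ± 0.11.

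At the limit of the rule, AT5G17760, 254283_s_at and BGLU25 were the last inside, with lesser differences of 1.00, 1.01 and 1.05. AT1G17960 (0.9975), LCR67 (0.9971) and 257592_at (0.95) were the first outside. When each of the 12 arrays was left out in turn, 41 of the 53 kept differences of at least 1 in all 12 fits and 12 lost one in at least 1 fit. The named ones of the 12 were AT5G17760, CML41, AT4G26950, BGLU25, AT1G72540, AT1G65500 and AT1G52000.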

How the data were processed

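RNA from 12 samples was labelled from 8 ug of total RNA and read on 1-colour Affymetrix arrays, per the labels' protocols. The authors deposited a linear intensity for each probe set. The summary and scaling behind these values are not given in the sources used. The 64 control probe sets were left out, and log2(intensity + 16) was taken with no filter and no further scaling. A model with 1 mean per group was fitted to all arrays with limma 3.58.1 in R 4.3.3 (eBayes with a mean-variance trend). Calls needed an adjusted p (Benjamini-Hochberg over 22746 probe sets, two-sided) under 0.05, and ± after a log2 value is the fit's standard error. The number of arrays limits the precision.

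The annotation names 1 gene for 13513 probe sets, several for 503 and none for 8730. Gene order and chromosomes were read from the TAIR10.1 gene table, and no coordinates are given, since no build is named for the arrays. The members, lists, tests and alternatives were chosen with earlier results of these data known, and the families of members (AAA-ATPases, vacuolar processing enzymes, SAL phosphatases, RNA-dependent RNA polymerases and beta glucosidases) after the members were seen. For each gene with several probe sets the brightest stood for it in lists. Named were the 16 members of 1 gene with the largest lesser difference, those called in a response, those at the rule's limit or in a list, and unnamed probe sets by ID where they rank among the 16 largest of all members, lie at the limit or, chosen after their values were seen, moved most or in opposite ways. The remaining named members, such as AT1G72540, AT1G52000 and AT4G26950, were added after their values were seen. Genes named from the lists and families are those called, at most 3 by size per comparison, and others added after their values were seen. The alternatives tried were a pseudocount of 1 or 64, median centring, quantile normalization, a filter on the dimmest 40% of probe sets, a replicate block, no trend, only the groups of a comparison, a 2-fold minimum, a difference of at least 1.5, no separation of arrays and leaving out each array. Promoter motifs were not analysed here. The fit was tested on simulated data. Counts and figures were made in Python 3.11.15.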

Additional observations from a re-analysis of the deposited data

Results flagged for a closer look

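In 5 members the chitooctaose arrays lay above all water arrays in one genotype and below all of them in the other. The share of all probe sets with this pattern is not given here, so the count is not shown to be particular to the members. Probe set 254283_s_at, which has no gene name, is the 1 whose response limma called in both genotypes, at 0.84 in wild type and -0.93 in the mutant. AT1G80130 was called in wild type (0.49) but not in the mutant (-0.29, limma adjusted p = 0.076), and so was CML41 (0.79, and -0.37 with limma adjusted p = 0.42). Probe set 250083_at was called in the mutant (-0.73) but not in wild type (0.32, limma adjusted p = 0.13). AT1G72540 was called in neither, at -0.34 in wild type (limma adjusted p = 0.14) and 0.29 in the mutant (limma adjusted p = 0.53). The difference between the responses was not tested. Groups of 3 arrays are too small for a check of single outlying arrays.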

How the results depend on the processing

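The set of 53 became 27 with a pseudocount of 64, 27 without the dimmest 40% of probe sets and 20 with a difference of at least 1.5, all of them among the 53, and 48 to 56 without 1 array. With a pseudocount of 1 it was 68. Quantile normalization gave 53, median centring 55, and dropping the separation of arrays 53. A minimum of 2-fold left 2 rises and 0 falls in wild type and 3 and 0 in the mutant. Fitting only the groups of the comparison gave 21 rises in the mutant, where all 4 groups gave 12, and 14 in wild type, where all 4 groups gave 20. Rises in wild type numbered 14 without the dimmest 40% of probe sets and 16 with a pseudocount of 64. They numbered 19 with quantile normalization, 21 with median centring, 20 with a pseudocount of 1 and 19 with no trend. Rises in the mutant numbered 18 with quantile normalization, 17 with median centring and 18 with a pseudocount of 64. They numbered 11 with a pseudocount of 1, 9 without the dimmest 40% of probe sets and 9 with no trend. Without 1 array, rises in wild type numbered 14 to 20 and falls 1 to 2, and in the mutant 7 to 16 and 1 to 4. The 10 that rose in both genotypes became 0 with the 2-fold minimum, 5 to 11 without 1 array and 10 with the replicate block. The replicate numbers were not treated as pairs in the main fit, and whether they pair the samples was not tested. Deviations of same-numbered arrays correlated at -0.129 to 0.223 (median 0.051), over 0.1 in 6 of 18 pairs. For arrays of different number the range was -0.203 to 0.205 (median -0.041), over 0.1 in 4 of 36 pairs. With the replicate block 19 rose and 1 fell in wild type, and 13 and 2 in the mutant. The 35 called responses gave 722 values under alternatives, of which 617 kept the call, 105 lost it and 0 reversed. The 24 list genes called numbered 16 and 3 in the responses of wild type and mutant, and 13 each for the genotype in water and with chitooctaose. A 2-fold minimum made these 2, 0, 0 and 3. In the mutant response quantile normalization, median centring and the filter gave 5 each. Without 1 array the counts ran from 15 to 16, 3 to 5, 7 to 13 and 10 to 13. The counts for the lists and for rises in both genotypes under alternatives were added after seeing the data. Where a count moved, the cause was not tested, apart from stricter limits by their construction. Of the 53 members, 26 were under an intensity of 50 in wild type water, where the added 16 sets much of the log2 value.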

Other observations

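The 22 named members lie on all 5 nuclear chromosomes, with 9 on chromosome 1 (40.9%, against 25.7% of all named genes), 3 on chromosome 2, 4 on chromosome 3, 2 on chromosome 4 and 4 on chromosome 5. No 2 of them are direct neighbours in gene order. Of the protein-coding genes directly beside a named member, 22 were measured and are no members. Their differences between mutant and wild type ran from -0.95 to 0.93 in water (median 0.02) and from -1.26 to 0.94 with chitooctaose (median 0.03). AT1G65490, beside AT1G65500, was highest in water at 0.93 and stood at -0.33 with chitooctaose. AT4G17670, beside AT4G17660, was at 0.60 and 0.94.

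Within the mutant chitooctaose group, replicate 3 was the lowest array for 34 of the 53 members and replicate 2 for 4. Within mutant water, replicate 3 was the highest for 33. The median intensities over all probe sets had the same order. They were 188.6, 194.2 and 178.1 for replicates 1 to 3 of mutant chitooctaose and 186.0, 189.0 and 196.5 for mutant water. The order of arrays is thus not shown to be particular to the members. Without mutant chitooctaose replicate 3 the members that rose in the mutant numbered 12, and without mutant water replicate 3 they numbered 7.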
